A study of Drosophila melanogaster with 2 samples.

Results

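The promoter peaks described here are the regions of the reproducible list of the study, the list that passed its irreproducible discovery rate (IDR) threshold, whose summit lay within 500 bp of an annotated transcription start and not at a divergent gene pair. Summits between, or within 500 bp of both, starts of a pair of protein-coding genes that point apart at most 1000 bp from each other were left out. By this rule 1818 of the 8005 IDR peaks (22.7%) were promoter peaks without a divergent neighbour, 538 were promoter peaks between head-to-head genes, and 5649 lay outside promoters. The rule used positions only. At its outer limit, the 117 summits in the last 50 bp inside it had a median signal value of 338 and a median GC content of 30.7%, and the summits in the next 50 bp, outside the rule, had 337 and 31.7%.

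The 2 libraries are biological replicates of 1 group, whole pupae aged 48 h of Drosophila melanogaster, males and females pooled, of a transgenic strain that expresses CG8301 with GFP at its C terminus. No other genotype, treatment or time was used, and the driver of the transgene was not stated. The labels conflict: CG8301 is given as the antibody target of a transcription factor ChIP-seq, whereas the free text of both libraries calls them input. No region below is therefore taken for a binding site of the fused protein. Whole pupae mix all tissues, so a peak found in few cells and a weak peak in all cells cannot be told apart. The sequencing depth is unknown, and all intervals cover the counting error of regions or genes only.

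A promoter is the stretch of DNA at which the transcription machinery assembles, and many active fly promoters are depleted of nucleosomes just upstream of the start. In the compact fly genome many genes lie head to head and share 1 such stretch, so that a peak there cannot be given to either gene. Promoters without such a neighbour are easier to give to a single coding gene, and they include many genes of development that use several alternative starts. GAGA factor, encoded by Trl, binds repeats of GA at many of these promoters and helps to keep them open.

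The summits of the strongest peaks were AT-rich. The following stretches, shown for this composition, are the 81 bp centred on the summit of the 6 strongest peaks, read on the strand of the gene, from the NCBI reference assembly (dm6). Capitals mark the word TATAAA, which binds the TATA-binding protein, and the word TTAAGA, each on either strand; the second word was chosen after its counts were seen. A match is a description, not a site; 4 of the 6 hold a marked word.
CG14100, chr3L:19590573-19590653, minus strand: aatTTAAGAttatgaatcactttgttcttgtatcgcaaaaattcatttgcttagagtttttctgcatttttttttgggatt
CG18549, chr3R:12449129-12449209, plus strand: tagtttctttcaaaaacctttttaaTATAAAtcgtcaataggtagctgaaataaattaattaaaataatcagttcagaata
Hsp27, chr3L:9383864-9383944, plus strand: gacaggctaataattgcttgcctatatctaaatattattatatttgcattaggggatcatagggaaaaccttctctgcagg
CG31145, chr3R:23669818-23669898, minus strand: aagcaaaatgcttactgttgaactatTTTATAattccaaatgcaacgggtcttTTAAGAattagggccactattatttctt
larp, chr3R:28326557-28326637, minus strand: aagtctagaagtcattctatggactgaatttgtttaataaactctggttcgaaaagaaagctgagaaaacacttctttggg
CG13921, chr3L:1746741-1746821, plus strand: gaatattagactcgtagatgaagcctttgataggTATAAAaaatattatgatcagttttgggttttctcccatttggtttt

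The second set of sequences lies nearer the start. It shows the stretch from -150 to -50 bp of the start at 4 of the strongest peaks whose start carries the letters GAGAGAG, the repeat that GAGA factor binds, in capitals and on either strand. The letters are not under the summits of these 4 peaks, which lay at -333 bp for larp, -348 bp for for, -285 bp for cu and -308 bp for papi (negative positions lie upstream of the start). These 4 genes were chosen after their values were seen. They encode an RNA-binding La-related protein (larp), a cGMP-dependent protein kinase (for), the nocturnin-like protein curled (cu) and a Tudor domain protein of the piRNA pathway (papi).
larp, chr3R:28326314-28326414, minus strand: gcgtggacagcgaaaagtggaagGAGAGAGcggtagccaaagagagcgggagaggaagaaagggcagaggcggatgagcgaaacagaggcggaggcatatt
for, chr2L:3632204-3632304, minus strand: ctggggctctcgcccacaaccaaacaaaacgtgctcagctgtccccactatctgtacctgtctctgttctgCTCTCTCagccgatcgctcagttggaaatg
cu, chr3R:11197442-11197542, plus strand: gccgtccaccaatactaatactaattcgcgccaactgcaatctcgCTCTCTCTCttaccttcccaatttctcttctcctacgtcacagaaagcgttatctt
papi, chr2L:2221939-2222039, plus strand: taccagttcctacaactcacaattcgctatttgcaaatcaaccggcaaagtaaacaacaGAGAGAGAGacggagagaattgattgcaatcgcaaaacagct

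The 12 strongest peaks were strong in both replicates and all lay upstream of their start. The authors' signal value, whose scale is not stated, ran from 3138 to 5508 in the IDR list, and no peak of the 12 ranked below 49 in replicate 1 or 47 in replicate 2, in lists of 30000 regions each. The strongest, at CG14100 on 3L, ranked 12 in replicate 1 and 1 in replicate 2, with its summit at -89 bp. The summit lay in the 249 bp between CG14100 and the end of ash1, a trithorax group gene read in the same direction, and the peak of 435 bp was wider than this gap. CG18549 on 3R ranked 10 in both replicates, with its summit at -127 bp, in a gap of 250 bp behind vrs that its peak of 423 bp also overran.

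Among the 12 were genes with well-known products. Hsp27, a small heat shock protein gene, ranked 9 in replicate 1 and 14 in replicate 2, with the summit at -159 bp in the IDR list and in each replicate. At larp the rank was 21 in both replicates and the summit lay at -333 bp. The peak of ph-p, a subunit of Polycomb repressive complex 1, ranked 48 in replicate 1 and 27 in replicate 2. It was 1551 bp wide, the widest of all 1818, and its summit lay at -470 bp. The IDR list holds the same interval again with a second summit, at rank 118 and 431 bp downstream of its nearest ph-p start. Rtnl1, a reticulon that shapes the endoplasmic reticulum, ranked 49 in replicate 1 and 28 in replicate 2, with the summit at -281 bp. The remaining peaks were at CG31145, CG13921, CG9815, CG10165, Fkbp14, a peptidyl-prolyl isomerase gene, and the long noncoding RNA gene lncRNA:CR31044. The GC content within 50 bp of these 12 summits was 21.8 to 38.6%, and in 11 of 12 it was lower than the mean of the windows 500 bp to each side.

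**Figure D1:**
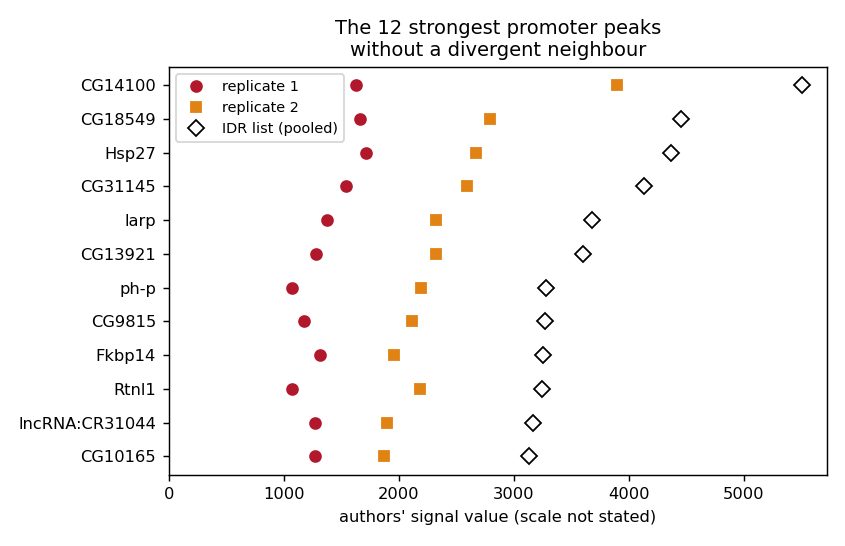
The authors' signal value (x axis, scale not stated, linear) of the 12 strongest promoter peaks without a divergent neighbour, with 1 point for replicate 1, 1 for replicate 2 and 1 for the IDR list, made from both pooled. The IDR values run from 3138 to 5508, and in every one of the 12 peaks replicate 2 has the larger value; the depth of each library is unknown, so only ranks are compared between lists.

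The replicates held most of these peaks. Of the 1818, 1419 (78.1%, exact 95% interval 76.1 to 79.9) overlapped the 8005 strongest regions of both replicates, against 70.1% (66.0 to 73.9) of head-to-head peaks and 78.5% (77.4 to 79.6) of peaks outside promoters. Over the whole IDR list the share was 77.8%, so the share of the promoter peaks is that of the background. Replicate 1 alone held 89.3% of them and replicate 2 alone held 87.6%, and 20 overlapped none of the 8005 strongest regions of either. The IDR procedure used these lists, so the shares are not independent of it. In the 1722 peaks that both full replicate lists covered, the replicates' summits lay a median of 25 bp apart, and in 1285 of them (74.6%) at most 50 bp apart.

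Strength separated the peaks in several measures at once. Split into 4 classes of 454 or 455 peaks by signal, from strongest to weakest, 99.6%, 93.8%, 83.9% and 34.9% overlapped both replicates. This fall is partly set in advance, because the classes and the strongest regions of each replicate were both cut by signal. The weakest class holds the end of the IDR list, near that cut, so its low share does not test reproducibility. The median distance between the replicates' summits, from the strongest to the weakest class, was 12, 22, 35 and 44 bp. Median GC content at the summit was 28.7%, 30.7%, 33.7% and 38.6%, and the median position was -196, -180.5, -142.5 and -87 bp. The strongest class, with signal values from 630 to 5508, thus lay farther upstream, in more AT-rich sequence and at closer positions in the 2 replicates than the weakest, with values from 143 to 203.

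Many of the weaker peaks had the same width. Of the 1818 peaks, 329 were exactly 410 bp wide, 322 of these had the summit at the centre, and 322 (97.9%) ranked beyond 4002 in the IDR list, against 35.9% of the other peaks. Peaks of this width had a median GC content of 40.6% and a median position of -51 bp, against 30.7% and -177 bp for the other 1489. Within 100 bp of the start lay 33.1% of the 410 bp peaks and 14.4% of the others. Whether the peak caller set this width when it could not find the edges was not tested.

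The peaks were only slightly stronger than the rest of the list. On a scale on which 100 is the strongest region of a list, their median rank percentile was 52.9, against 58.4 for head-to-head peaks and 48.1 for peaks outside promoters. In replicate 1 these values were 50.7, 50.6 and 49.7, and in replicate 2 they were 53.4, 61.5 and 47.8. The order over the 3 classes in replicate 1 rests on differences of about 1 percentile, so the place of these promoter peaks below the head-to-head peaks was seen in the IDR list and replicate 2 and not in replicate 1.

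Replicates disagreed at part of the promoters. Of the 1818 peaks, 96 lacked a region in at least 1 of the full lists of 30000. The strongest of these was at Pgm1, a phosphoglucomutase gene, at rank 931 in replicate 1 with no region in replicate 2. Among the 1722 ranked in both lists, 3 had the largest differences in rank. The weaker of the peaks at gro, which encodes the corepressor Groucho, ranked 25077 in replicate 1 and 4195 in replicate 2. At CG6574 the ranks were 4661 and 25133, and at coro, the gene of the actin-binding protein coronin, 21662 and 4091. In the IDR list these peaks ranked 6993, 4409 and 6053, and replicate 2 was the higher in gro and coro but not in CG6574.

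Most summits lay upstream of the start and not on it. The median position was -164 bp, with quartiles at -277 and 39 bp, and 1310 of the 1818 summits (72.1%, 69.9 to 74.1) were upstream. In replicate 1 the share was 65.3% and in replicate 2 it was 74.6%. Head-to-head summits were nearer their closest start, at a median of -106 bp, although the rule that defines them keeps their distance short. Of the bins of 100 bp upstream of the start, the second and the third held 400 and 350 peaks, against 176 in the first and 148 from 0 to 100 bp downstream.

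**Figure D2:**
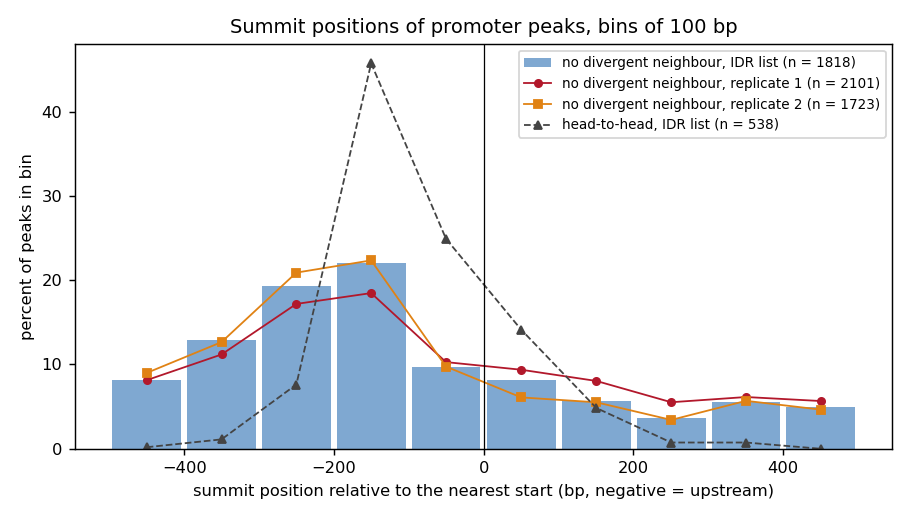
Percent of peaks (y axis) by summit position relative to the nearest start (x axis, bp, bins of 100 bp): bars are the 1818 promoter peaks without a divergent neighbour, solid lines the same class in the 8005 strongest regions of each replicate, and the dashed line the 538 head-to-head peaks. The bars are highest in the second bin upstream of the start (22.0%), and replicate 1 has more summits downstream of the start than replicate 2.

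Peaks nearer to and farther from the start also differed in strength and composition. Summits in the second and the third bin upstream had median rank percentiles of 62.5 to 62.7 and a median GC content of 29.7%. Summits from -100 to -1 bp had 36.5 and 38.6%, and those from 0 to 100 bp had 34.8 and 41.1%. The 66 peaks of the third bin downstream were the weakest by bin, with a median rank percentile of 32.7.

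The dip in GC content was sharp and centred on the summit. The sequence within 50 bp of the summit had a median GC content of 31.7%, against 42.6% in windows of the same length 500 bp away, and the summit was the lower in 1358 peaks (74.7%). In replicate 1 the summit was lower in 66.2% of peaks and in replicate 2 in 78.8%. The dip was shallower than in the other classes, of which 89.4% of head-to-head peaks and 87.0% of peaks outside promoters had the lower value at the summit. The dip was thus present in all 3 classes. Coverage was not analysed here, and a part of base composition in the calling of regions was not tested.

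Starts with a peak differed from starts without one in the sequence next to the start. Of 13423 protein-coding starts without a divergent partner, 1656 (12.3%) had such a peak within 500 bp. From -150 to -50 bp, starts with a peak had a median GC content of 44.6%, against 40.6% for the 11767 starts without one. When all starts were divided into 5 equal classes by this GC content, the share with a peak was 17.3% in the highest class and 8.64% in the lowest, with 20% and 9.68% in replicate 1 and 16.6% and 8.60% in replicate 2. Farther upstream the difference ran the other way: in 21 bp windows the mean GC content at -300 bp was 36.5% at starts with a peak and 38.5% at starts without. Starts with a peak thus had a GC-rich stretch next to the start and an AT-rich stretch behind it, where the summits lay. Starts without one had the same course in weaker form, with 42.7% at -60 bp against 48.2% at starts with a peak. The lower value at -300 bp is partly set in advance, because these starts were chosen by summits that are AT-rich and mostly upstream.

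**Figure D3:**
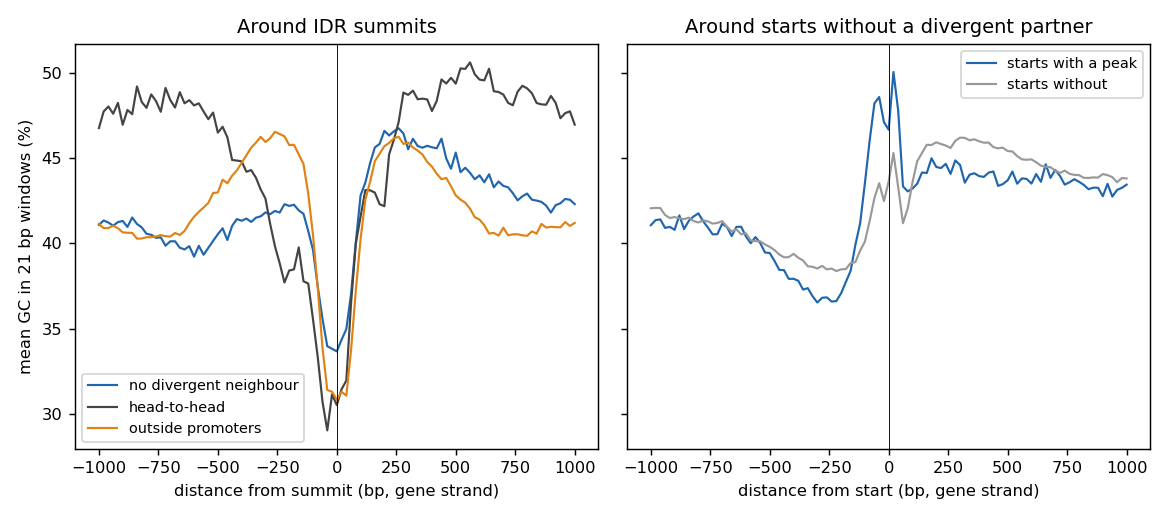
Mean GC content in 21 bp windows (y axis, %) on the strand of the nearest gene, by distance from the summit for 3 classes of IDR peaks (left) and by distance from the start for starts with and without a promoter peak (right). The summit curves fall to about 31 to 34% at 0 bp; starts with a peak have the higher value at -100 bp (43.5 against 40.1%) and the lower at -300 bp (36.5 against 38.5%).

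GAGAGAG was the motif that most separated starts with a peak from starts without one among those found at 1% or more of either. Between -150 and -50 bp, 211 of the 1656 starts with a peak (12.7%, 11.2 to 14.4) held it on either strand, against 542 of the 11767 without one (4.61%, 4.23 to 5.0), and 5.61% of all 13423 windows of this length. With the replicate lists in place of the IDR list, the shares were 12.3% against 4.54% in replicate 1 and 13.4% against 4.55% in replicate 2. Longer GA runs hold overlapping matches and were counted once in each window. The motif was singled out after its counts were seen, and starts of 1 gene that lie close together share sequence and peaks, so the starts are not independent.

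Turned round, 28.0% of starts with GAGAGAG had a peak (211 of 753; 24.8 to 31.4), against 11.4% of starts without it (10.9 to 12.0). The difference stood within genes of a single start, at 21.5% against 6.78%, and within genes of several starts, at 31.1% against 16.4%. It also stood within 4 of the 5 GC classes: 30% against 9.08% in the second, 26.8% against 11.2% in the third, 28.6% against 13.0% in the fourth and 28.4% against 15.7% in the highest. The lowest class had 7 starts with the motif, of which 0 had a peak, which allows a share of up to 41.0%. Outside the lowest class, starts with the motif thus had a peak more often than starts of like GC content without it.

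The repeat was more frequent 100 bp to each side of the summits than under them. At the summit itself 3.41% of peaks held GAGAGAG, against 5.78% and 6.49% in windows centred 100 bp upstream and downstream of it and 2.53% at 500 bp. The ratio of the summit share to that at 500 bp was 1.35 in the IDR list, 1.42 in replicate 1 and 0.951 in replicate 2. Of the 1310 peaks with an upstream summit, 332 (25.3%) had the repeat within 250 bp of the summit. In these the median distance was 128 bp, and in 52.7% the repeat lay on the side of the start. No background was counted for this wider window, and 128 bp is about the middle of the 250 bp searched. These values alone therefore do not place the repeat beside the summit. In the 4 classes of strength, from strongest to weakest, 1.98%, 2.42%, 3.30% and 5.93% of peaks held it at the summit. These positions are counts of letters, and binding of GAGA factor was not measured.

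TATAAA was the reverse, frequent under the summits and sparse at the starts. It was at 384 summits (21.1%, 19.3 to 23.1), against 12.3% of flanking windows, 1.71 times the share, and 13.8% of all windows upstream of starts. The ratio was 1.34 in replicate 1 and 1.88 in replicate 2. The word was at 29.4% of head-to-head summits, against 6.32% of their flanks, and at 24.2% of summits outside promoters. It was thus not particular to these peaks. At the starts, in contrast, TATAAA was less frequent where there was a peak: within 50 bp of the start, 8.57% of starts with a peak held it, against 17.4% of starts without. From the strongest to the weakest class, 27.7%, 20.7%, 20.5% and 15.6% of summits held it. Starts with a peak thus carried the word less often where a TATA box would stand. Upstream of the start the shares at starts with and without a peak differed less. They were 10.7% against 14.3% at -100 bp, 18.4% against 16.7% at -200 bp and 18.2% against 16.5% at -300 bp. The share at summits is over all peaks and is set against flanks, so it is not a comparison of starts. The word was not counted within GC classes, and mean GC content at the start was 46.7% with a peak and 43.6% without.

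**Figure D4:**
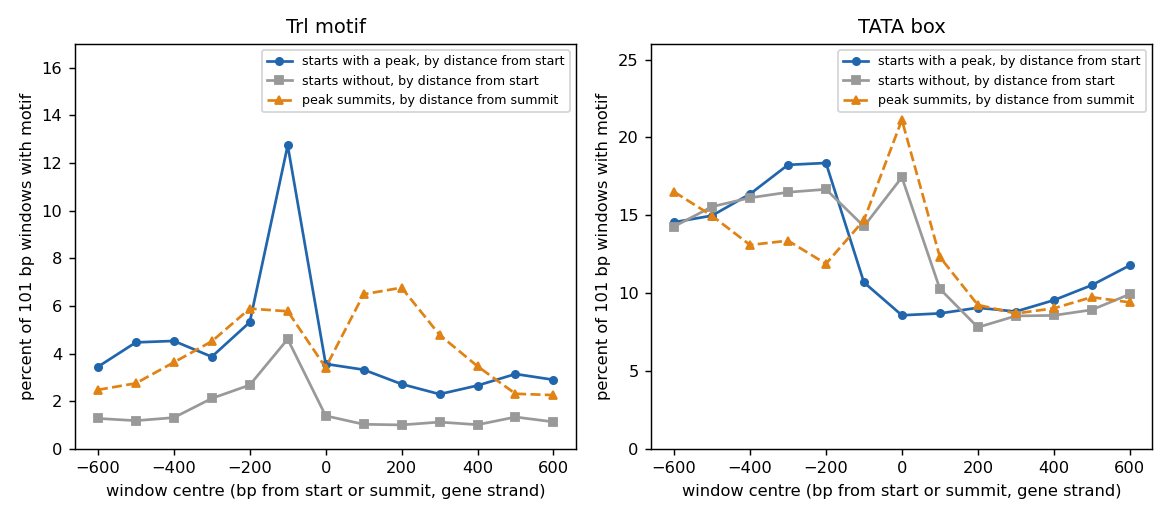
Percent of windows (y axis, 50 bp to each side of the centre) that hold the Trl motif, GAGAGAG (left), or the TATA box word, TATAAA (right), by window centre (x axis, bp) relative to the start for starts with and without a peak, and relative to the summit for the promoter peaks themselves. The Trl motif has its highest share at -100 bp of starts with a peak (12.7%), and the TATA box word its highest at the summits (21.1%) and, among starts without a peak, at the start (17.4%).

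Of 28 motifs searched, the words with the largest share at summits relative to flanks were all AT-rich. After TATAAA came the run AAAAAAAA, at 9.68% of summits against 6.02% of flanks and 6.15% of all windows upstream of starts. TGCATA, a word within the Su(Hw) motif, was at 7.87% against 5.50%, and at 5.52% of the windows upstream of starts. At head-to-head summits AAAAAAAA and TGCATA had shares of 7.62% and 8.74%, and at summits outside promoters 9.12% and 9.49%. The lowest ratios belonged to CAGGTAG, bound by Zelda, at 1 summit, and to the downstream promoter element CGGACGT, at 2 summits. Such counts are too small to rank these words. Among all words of 6 letters found at 100 summits or more, TTAAGA had the largest ratio, at 207 summits (11.4%) against 4.37% of flanks and 6.38% of the windows upstream of starts. Its ratio was 2.60 in the IDR list, 1.93 in replicate 1 and 2.95 in replicate 2, and it was 3.84 at head-to-head summits and 2.55 outside promoters. These words can overlap each other and TATAAA by shared A and T letters.

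The peaks were found at tandem genes, at widely spaced divergent genes and inside other genes. Of the 1515 peaks with a protein-coding nearest start, 738 (48.7%) were at a start whose nearest upstream gene is read in the same direction. A further 551 (36.4%) faced a gene read the other way more than 1000 bp off, 156 (10.3%) lay inside another gene, and in 70 the nearest start has a divergent partner elsewhere. By start, 11.8% of 7029 tandem starts had a peak (11.0 to 12.5), 15.5% of 3982 far divergent starts (14.4 to 16.7) and 8.82% of 2403 starts inside another gene (7.72 to 10.03). Both replicates gave this order, with 13.4%, 16.5% and 10.2% in replicate 1 and 11.4%, 14.8% and 9.20% in replicate 2. These classes were not divided by the number of starts of the gene.

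Tandem starts close behind another gene had a peak less often than other tandem starts. With a gap of at most 250 bp to the gene before, 90 of 1426 starts had one (6.31%, 5.11 to 7.70), against 12.6% with up to 1000 bp, 14.4% with up to 5000 bp and 12.6% beyond. In replicate 1 the share in the closest class was 7.5% and in replicate 2 it was 5.68%, again the lowest of the 4 in each. Gap and number of starts go together: over all neighbour classes the median gap was 555 bp in genes with a single start and 2987.5 bp at later starts. The 7.30% of starts of single-start genes that had a peak lies within the interval of the closest class. The gap classes were not divided by number of starts, so the part of that number was not tested. The strongest peak of all, at CG14100, was in this closest class all the same. So was the peak of CG8301 itself, which ranked 2662 in replicate 1 and 1668 in replicate 2: 81 bp separate CG8301 from Son, and the summit, at -136 bp, fell in the annotated 3' UTR of Son.

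The strongest peaks of the other neighbour classes show how these promoters are laid out. CG31145 and ph-p faced divergent genes 7699 and 4634 bp away. CG10165 lay inside CG10137, and cbt, a KLF transcription factor gene, inside ush, which encodes a cofactor of GATA factors. The cbt peak ranked 137 in replicate 1 and 60 in replicate 2, with the summit at -374 bp. A noncoding start that points away was present at 590 protein-coding starts, of which 93 (15.8%, 12.9 to 19.0) had a peak, against 12.2% of the rest. CG13631 and CG46456 had the strongest such peaks, at ranks 412 and 387 in replicate 1 and 151 and 356 in replicate 2.

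Starts of genes with several starts more often had a peak within 500 bp. Of the starts of genes with a single start, 7.30% had a peak, against 15.8% of first starts in genes of 2 to 3 starts and 23.5% in genes of 4 or more. Later starts did not differ from first ones in these classes beyond their intervals: they had 15.6% (14.3 to 17.03) against 15.8% (14.2 to 17.5) in genes of 2 to 3 starts, and 21.8% (19.8 to 24.0) against 23.5% (18.7 to 28.7) in genes of 4 or more. In these shares a peak counted for every start within 500 bp of its summit. Such a window held 2 or more starts for 379 peaks (20.8%). Genes with a single start cannot gain from this by their own starts, so their share is not on equal terms with the others. The part of shared peaks in the difference was not tested, and the intervals treat the starts as independent. Within genes of several starts, 34.6% of the 992 peaks were at the most upstream start, and 33.8% of all such starts are most upstream. The peaks thus fell on first and later starts about as often as these occur.

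Some genes collected several peaks. The 1818 peaks had 1548 nearest genes, of which 219 (14.1%) had 2 or more. dnc, which encodes a cAMP phosphodiesterase, had 6, with IDR signal values from 149 to 1620. Rtnl1, Ptpmeg2, a protein tyrosine phosphatase gene, and Moe, whose product moesin links actin to the plasma membrane, had 5 each. Peaks were counted by summit, and 1 called interval can hold 2 of them. This was so for 2 of the 6 at dnc and 2 of the 5 at Rtnl1. Of the 1818 peaks, 90 overlapped the next IDR peak. The Ptpmeg2 peaks had IDR signal values of 894, 1290, 1447 and 1908 at 4 starts, and 165 for a further peak next to the last. At Moe the values were lower, from 231 to 515. In some cases 1 region of a replicate stood for 2 IDR peaks, as at the last pair of dnc: 178 of the 1785 peaks with a region in replicate 1 shared it with another IDR peak, and 158 of 1755 in replicate 2.

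Gene groups were read against the share of all genes. Of 8893 protein-coding genes without a divergent neighbour, 1075 (12.1%) had such a peak. The share was higher in genes with more starts: 7.30% of genes with 1 start, 23.6% with 2 to 3 and 53.6% with 4 or more. Other traits of genes with several starts were not tested. A list with many such genes would thus have a higher share, and the median number of starts has to be read with the share. It was 3 in the ecdysone and RNA-binding lists, 2 in the clock, insulin, JNK, Dpp and Hedgehog, Polycomb, muscle, neuronal, glycolysis and Hox lists, 1.5 in the chromatin enzyme list and 1 in the others. The counts below are over list genes without a divergent neighbour, with exact 95% intervals; a named gene that has a divergent neighbour at another start is marked as not counted.

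In the IDR list, heat shock and chaperone genes had the highest share, 6 of 11 (54.5%, 23.4 to 83.3; median 1 start). Beside Hsp27, the peak of Hsp26, another small heat shock protein gene, ranked 772 in replicate 1 and 700 in replicate 2, and its summit lay at -143 bp. The peak of stv, a BAG family co-chaperone gene, ranked 2822 and 3409. Hsp23, next to Hsp27, had a weak peak with an IDR signal value of 152, and so had Hsp110 and Hsc70-3, with 175 and 148. The median of the 6 was 276, against 311 for all 1515 peaks at protein-coding starts. The list's count was 6 in replicate 1 and 4 in replicate 2. In replicate 2 the RNA-binding list, with 8 of 15, had a higher share.

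The ecdysone list, genes of the hormone that drives metamorphosis and of the factors it induces, had 10 of 20 (50%, 27.2 to 72.8; median 3 starts). Eip75B, a nuclear receptor and early ecdysone response gene, had 4 peaks, of which the strongest ranked 532 in replicate 1 and 410 in replicate 2 and lay at 28 bp. Eip93F, which specifies adult development, ranked 685 and 1272, with the summit at -67 bp. Hnf4, a nuclear receptor of lipid metabolism, ranked 736 and 1207, at -277 bp. The receptor gene EcR itself had a weaker peak, at rank 7696 in replicate 1 and 2690 in replicate 2. Of these 4 genes EcR thus had the weakest peak in each replicate.

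RNA-binding and splicing genes had 8 of 15 (53.3%, 26.6 to 78.7; median 3 starts, and only 1 of the 15 has a single start). The strongest were msi, encoding the translational regulator musashi, at rank 228 in replicate 1 and 274 in replicate 2, mbl, the splicing factor muscleblind, at 1395 and 659, and Sxl, the master gene of sex determination, at 2988 and 2459. This list and the ecdysone list have about the share of all genes with 4 or more starts, 53.6%, and more than that of genes with 2 to 3, 23.6%.

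Signalling pathways had from 1 to 6 genes with a peak. The Notch pathway had 6 of 13 (46.2%, 19.2 to 74.9; median 1 start). Its strongest peak was at gro, at rank 515 in replicate 1 and 214 in replicate 2. E(spl)m3-HLH, a Notch target that encodes a repressor, ranked 335 and 559, although the start nearest to this summit is that of lncRNA:CR43644, and numb, a Notch inhibitor, 627 and 663. The receptor gene N had a weaker peak, at ranks 3563 and 3973. The Hippo pathway had 4 of 8 (50%, 15.7 to 84.3), with the atypical cadherin gene ft at ranks 225 and 394 and Mer at 1124 and 1015, and with app, not counted, at 1339 and 3261. EGFR and Ras signalling had 5 of 14 (35.7%, 12.8 to 64.9). The strongest peak of this list was at spi, a ligand of the receptor, not counted, at 183 and 130, followed by aos, a secreted inhibitor of the receptor, at 2568 and 1462, and csw, a protein tyrosine phosphatase gene, at 2081 and 3458. The Wnt pathway had 1 of 15 (6.67%, 0.169 to 31.9), the inhibitor nkd, at 2135 and 1826, and Apc, not counted, at 4792 and 1739. Its count was 3 in replicate 1 and 1 in replicate 2, its interval overlaps those of the other pathways, and a difference between pathways was not tested.

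The insulin and TOR list had 5 of 15 (33.3%), led by the transcription factor gene REPTOR at ranks 259 and 258, with the kinase subunit gene Pi3K21B and foxo next. The JAK/STAT list had 2 of 7, ken and Stat92E, and the JNK list 2 of 10, puc, a phosphatase that limits JNK, and Traf4, with hep, not counted, at 4399 and 7182. Dpp and Hedgehog signalling had 3 of 13, shn, salr and bi, all transcription factor genes. At puc the summit was at -9 bp and the ranks were 394 and 1393. The intervals of the insulin, JAK/STAT, JNK, and Dpp and Hedgehog lists all hold the 12.1% of all genes. In replicate 1, however, the insulin count was 9 and the JNK count 5, against 6 and 3 in replicate 2.

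Some clock and glycolytic genes had strong peaks. The circadian clock list had 5 of 11 (45.5%, 16.7 to 76.6; median 2 starts): the kinase gene sgg ranked 176 in replicate 1 and 223 in replicate 2, the photoreceptor gene cry 743 and 886, and vri, a clock repressor, 6671 and 3033. per, the core clock repressor, had a weak peak at ranks 7747 and 8228. The median IDR signal value of the 5 was 316, against 311 for all 1515 peaks at protein-coding starts. Glycolysis and the TCA cycle had 5 of 13 (38.5%, 13.9 to 68.4; median 2 starts). Gapdh2, a glycolytic dehydrogenase gene, ranked 31 in replicate 1 and 61 in replicate 2, and its summit was at -164 bp. Hex-A, a hexokinase gene, ranked 128 and 229, and Eno, the enolase gene, not counted, 215 and 480, at -186 and -191 bp. The summits of these 3 glycolytic genes, the strongest of the list, thus lay between -191 and -164 bp. Over the 9 genes of the list with a peak, those not counted included, positions ran from -391 to 126 bp. Idh and Ald1 of this list had weaker peaks, with IDR ranks of 3766 and 6975, at 12 and 126 bp.

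Cytoplasmic ribosomal protein genes stood out by position more than by share. Of 37 such genes, 11 (29.7%, 15.9 to 47.0; median 1 start) had a peak, and 4 more had one although they have a divergent neighbour at another place. Of these 15 peaks 14 had the summit within 100 bp of the start, against 257 of the 1515 peaks at protein-coding starts (16.96%). Their median position was 5 bp, against -176 bp, and their median GC content 43.6%, against 32.7%. RpL24 at 5 bp, RpL30 at 3 bp and RpS4 at 16 bp were the strongest, with IDR signal values of 348, 329 and 299. The median of the 15 was 198, against 311 for the 1515. In replicate 1, 14 of 14 were within 100 bp, and in replicate 2, 12 of 13. Of the 15, 8 were of the 410 bp width, and of the 7 that were not, 6 lay within 100 bp. The position was seen after these values were known, and it is a description.

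Of other genes of cell upkeep, those of the mitochondria and the proteasome had few peaks by count. None of 15 mitochondrial ribosomal protein genes had one, which allows a share of up to 21.8%. Oxidative phosphorylation had 1 of 45, COX7AL2 (2.22%, 0.0562 to 11.8), and the proteasome 1 of 22, Rpn11 (4.55%, 0.115 to 22.8). Of these genes 14 of 15, 34 of 45 and 18 of 22 have a single start, and the 7.30% of all such genes lies within each of the 3 intervals. Many members of these groups were not counted because they do have a divergent neighbour, 58 of 73 in the mitochondrial ribosome and 45 of 90 in oxidative phosphorylation. Translation factors had 6 of 18 (33.3%, 13.3 to 59.0), led by eIF6 at ranks 212 and 63, whose summit is nearer to the start of asRNA:CR45928, pAbp, the poly(A)-binding protein gene, and eEF1gamma.

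Receptor, cuticle and immune peptide genes had almost no peaks within 500 bp of a start. Of 103 odorant and gustatory receptor genes, 1 had a peak, Or67a (0.971%, 0.0246 to 5.29), of 66 cuticle protein genes 2, Cpr50Ca and Cpr97Eb (3.03%, 0.369 to 10.5), and of 16 immune peptide genes 0, which allows up to 20.6%. These genes mostly have a single start, 94 of 103, 60 of 66 and 16 of 16, for which the share over all genes was 7.30%, within the cuticle and immune intervals and above that of the receptors. With a window of 1000 bp the count of cuticle genes was 11 of 66, and the share over all genes was 15.8%. Neuronal genes had 4 of 23, led by elav, an RNA-binding protein of neurons, at ranks 81 and 244, with Fas2 and Sh. The muscle structure list had 4 of 21, led by sls, which encodes the elastic sarcomere protein of the titin family, at 595 and 600. Next were Act5C, a cytoplasmic actin gene that is not particular to muscle, and Act87E. The summit at Act5C is nearer to the start of lncRNA:CR45668. All 4 peaks of the muscle structure list and all 4 neuronal peaks lay more than 250 bp from the start.

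Chromatin and cell cycle lists were near the share of all genes or had wide intervals. Polycomb and trithorax genes had 4 of 11 (36.4%, 10.9 to 69.2), the neighbouring and closely related pair ph-p and ph-d and the neighbouring pair Psc and Su(z)2, all subunits or relatives of subunits of Polycomb repressive complex 1. ph-d ranked 1824 in replicate 1 and 1509 in replicate 2, far below ph-p, and reads from the near-identical parts of both genes may have been shared between them. Insulator genes had 2 of 10, lola and BEAF-32, and Trl, the gene of GAGA factor, not counted, ranked 1251 and 619. The Myc network and KLF genes had 2 of 8, cbt and btd, with Mnt not counted, and chromatin enzymes 2 of 6, the acetyltransferase gene nej and the demethylase gene Kdm2, with HDAC1 not counted. The cell cycle had 3 of 15, CycE, fzr and E2f1, and its strongest peak was at Dp, a partner of E2F, not counted, at 560 and 493. Cell death had 1 of 7, hid, an inducer of apoptosis, at ranks 359 and 225, with Atg8a and Diap1 not counted, and Hox genes 1 of 8, Antp, with 12.5% close to the 12.1% of all genes.

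**Figure D5:**
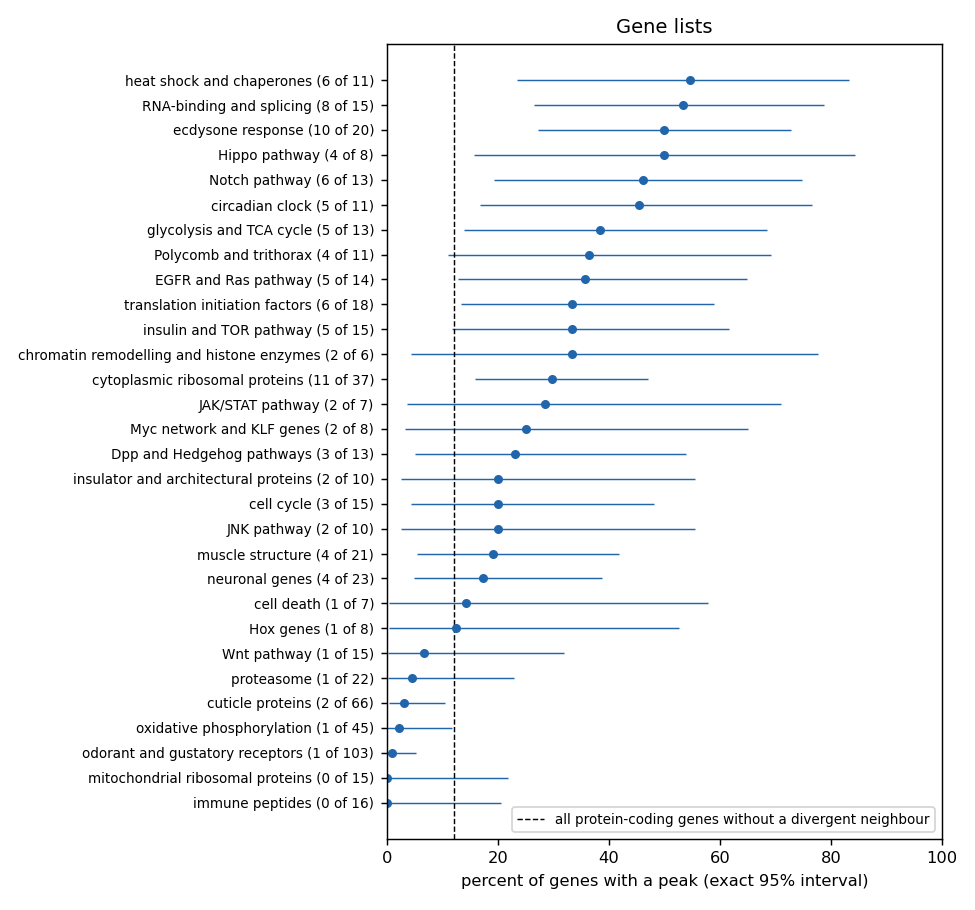
Percent of the protein-coding genes of each list that have a promoter peak without a divergent neighbour (x axis), with exact 95% intervals; brackets give genes with a peak of genes without a divergent neighbour, and the dashed line is the 12.1% of all such genes. Heat shock, RNA-binding, ecdysone and Hippo genes are at 50 to 54.5%, and oxidative phosphorylation, cuticle, receptor, mitochondrial ribosome and immune peptide genes at 0 to 3.03%.

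Not all of the promoters were of protein-coding genes. The nearest start belonged to a noncoding gene in 303 peaks: 223 long noncoding and 39 antisense RNAs among 277 noncoding RNA genes, 19 tRNAs, and a few pseudogenes and small RNAs. In 262 of the 303 no protein-coding start lay within 500 bp. By gene, 36 of 290 tRNA genes (12.4%) and 327 of 3261 noncoding RNA genes (10.03%) had such a peak within 500 bp, against 9.51% of all 13945 protein-coding genes. tRNA genes lie in clusters, so 1 peak can count for several.

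By chromosome, the X held 375 of the 1818 peaks (20.6%) and 17.3% of the protein-coding starts without a divergent partner, and in the replicates it held 20.9% and 19.9%. The small chromosome 4 held 5 peaks (0.275%) and 0.849% of the starts. The pupae were of both sexes, and the part of X copy number in these shares was not tested. Peaks were also close to others: 524 (28.8%) had another IDR peak within 1000 bp, against 15.8% of head-to-head peaks and 29.1% of peaks outside promoters.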

How the data were processed

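Chromatin of 2 biological replicates of CG8301-GFP pupae was sonicated to 200 to 800 bp, per the labels. The authors deposited narrowPeak lists on dm6: 1 of 30000 regions for each replicate and 1 for the pooled replicates, each derived with a control file, and an IDR list of 8005 regions from these 3, per the deposited text files. The values used are the authors' signal value, whose scale is not stated and which served only to rank regions within a list, and the deposited summit offset. For the aligner, the peak caller and the IDR cutoff, nothing is given in the sources used here. Read counts were not analysed here.

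Starts came from Ensembl annotation release 115 without transposable elements, and sequence from the NCBI assembly of the same build. Python 3.11.15, pandas 2.3.3 and scipy 1.17.1 were used. Each replicate was represented by its 8005 strongest regions, and overlap meant at least 1 bp. Motifs were sought on both strands within 50 bp of summits, in windows of the same length 500 bp to each side, and from -150 to -50 bp of starts. Intervals are exact (Clopper-Pearson) at 95%. With 2 samples of 1 group no test was made: values are described, per replicate. The scripts were tested on simulated data.

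The members and the 30 gene lists and 28 motifs were chosen with earlier results of these data known; 29 list entries matched no gene name of the annotation. The names given are, by rule, the 12 strongest peaks found in both replicates, up to 3 genes with the strongest peaks of each list, the 4 genes with most peaks, CG8301, the 3 peaks with the largest rank difference between replicates among those ranked in both, the 3 motifs with the largest and 2 with the smallest summit ratio, and the 2 strongest peaks of each neighbour class. The following were named after their values were seen: further list genes (EcR, Hsp23, Hsp110, Hsc70-3, N, per, Idh, Ald1, E2f1 and Su(z)2), Pgm1, the words GAGAGAG and TTAAGA, and the genes for, cu and papi. Other windows, other distances between divergent starts, the stronger part of the IDR list and each replicate alone were tried as alternatives.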

Additional observations from a re-analysis of the deposited data

How the results depend on the processing

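With a promoter window of 250 bp there were 1059 peaks, 75.1% overlapped both replicates, the median rank percentile was 50.4, 7.73% of genes had a peak and 59.3% of peaks were at the most upstream start. With 1000 bp the upstream share was 63.0%, the gene share 15.8% and the most upstream share 56.9%. With the stronger part of the IDR list alone, there were 961 peaks, 96.4% overlapped both replicates, the median rank percentile was 58.5, the gene share 7.08% and the most upstream share 57.4%. Requiring at least 50% of the peak to be covered lowered the overlap with both replicates to 70.9%. The most upstream share was 59.1% with divergent starts at most 500 bp apart and 57.4% with at most 2000 bp.

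Leaving out each replicate in turn gave 1723 to 2101 peaks, a median rank percentile of 50.7 to 53.4, an upstream share of 65.3 to 74.6%, a gene share of 12.0 to 13.4%, a most upstream share of 57.9 to 58.1% and a GAGAGAG ratio of starts with to starts without a peak of 2.72 to 2.95, beside 2.77 in the IDR list. That ratio was added after seeing the data. Shares at summits moved for all 28 motifs in windows of 100 bp to each side, which hold more letters. The count of 14 of 30 gene lists moved by over 1.5 times with the 250 bp window, of 7 with 1000 bp, of 7 without replicate 2 (insulin 9, Wnt 3, JNK 5, cell death 3, Myc and KLF 1, oxidative phosphorylation 2, cuticle 4) and of 2 without replicate 1 (JAK/STAT 1, receptors 0). Summit shares moved for 17 of 28 motifs without replicate 2 and for 10 without replicate 1. No paired analysis was possible because the 2 samples are 1 group. Unknown depth limits what the lack of a peak can show.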
